A study of Mus musculus with 12 samples.

Results

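The mitochondrial ribosome and protein import machinery were followed by 55 array probes for 48 mouse genes, out of 46628 probes on the array. A probe was a member when its name held, after the letters scl and zeros, the Entrez gene number of a mouse gene whose symbol begins with Mrpl or Mrps and a digit, with Timm, or with Tomm and a digit. The files give no gene names, so this reading of the probe names, through the RefSeq gene table of GRCm38.p6, is what names every gene below. It reached 48 of the 112 genes of that table with such a symbol, and Timm17a, Timm44, Timm50, Timm22, Timm10, Timm13 and Timm8a1 had no probe that could be read this way. The members were 22 probes for the large ribosomal subunit (Mrpl), 18 for the small subunit (Mrps), 8 for inner membrane and intermembrane space import (Timm) and 7 for outer membrane import (Tomm).

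Mitochondria carry their own ribosomes, which translate the few respiratory chain subunits encoded in mitochondrial DNA. All proteins of these ribosomes are encoded in the nucleus, made in the cytosol and imported. Import begins at the outer membrane, where receptors such as Tomm20, Tomm22 and Tomm70a hand precursors to the Tomm40 channel, and continues through small chaperones of the intermembrane space (Timm8b, Timm9, Timm10b) or the inner membrane translocases (Timm23, Timm21, Timm29). Neurons depend on respiration for most of their ATP, which makes both machines of interest in ischemia.

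The RNA came from organotypic hippocampal slice cultures, slices of hippocampus kept alive in culture, from C57BL/6J mice of mixed sex. Slices were incubated for 2 h in artificial cerebrospinal fluid (Control ACSF), in an ischemic solution (IS), in ACSF with DIDS, or in IS with DIDS, a stilbene derivative that inhibits chloride and bicarbonate transport. The labels give 3 samples in each of the 4 groups. They state neither the age of the animals, the dose of DIDS, nor whether samples came from separate cultures, so p-values measure only the spread between samples. In such tissue, fewer cells of a type and less RNA per cell cannot be told apart.

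The scanner files and the deposited value table of normalised intensities did not hold the same arrays. Of the 12 scanner files, 3 pairs were identical, leaving 9 distinct arrays, and 2 of those pairs were filed in different groups (IS 2 with ACSF + DIDS 3, and ACSF + DIDS 1 with IS + DIDS 2). The value table held 12 distinct columns. Of these, 9 kept the probe order of 1 scanner array each (Spearman rho of at least 0.9969), whereas the columns IS 2, ACSF + DIDS 1 and IS + DIDS 1 resembled no array more closely than rho 0.960. By this match the repeated arrays are ACSF + DIDS 3, IS + DIDS 2 and IS + DIDS 3. Each comparison is therefore given from both sources. The scanner fit used the 7 arrays filed under titles of 1 group only (3 Control ACSF, 2 IS, 1 ACSF + DIDS, 1 IS + DIDS). In it a group of 1 array is assumed to vary like the others. The value-table fit used all 12 columns, 3 per group. ACSF + DIDS 2 is described as IS + DIDS in its label, against its title. It is the only ACSF + DIDS array of the scanner fit. The scanner comparisons with that group, and the scanner interaction, therefore rest on an array of uncertain group. Chip 1 held IS 1 and the first 2 controls, chip 2 held the other 6 scanner arrays, and the chip of the 3 unmatched columns is not given in the sources used here.

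The brightest array was IS 1, with a median raw signal of 131.9 against 69.5 to 83.6 elsewhere. The share of probes detected per array ran from 32.8% to 35.6%. Markers of the labelled tissue were present: 7 of 9 neuronal genes with a probe (Snap25 and Nefl were not detected), 4 of 4 astrocyte, 4 of 4 oligodendrocyte and 3 of 4 microglial genes. The endothelial gene Pecam1 and the blood genes Hba-a1, Hbb-b1 and Ptprc were not detected, and of the meningeal genes only Dcn was.

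Of the 55 member probes, 47 probes for 43 genes passed the detection filter (a detection score above 0.99 on at least 3 of the 9 arrays), that is 85.5%, against 35.9% of all probes and 51.2% of probes with a gene name. They comprised 20 Mrpl, 15 Mrps, 6 Timm and 6 Tomm probes, and 45 of them were detected on all 9 arrays. Just inside the limit lay Tomm40, the outer membrane channel, detected on 6 arrays, and a probe for Mrpl1 on 7. Just outside lay a second Mrps10 probe, detected on 1. The others left out were the probes for Timm23, the channel of the inner membrane presequence translocase, Timm29, Tomm20, Mrpl32 and Mrps36, with second probes for Mrpl19 and Mrps18c. No level is given here from those probes.

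Promoters are shown for Timm10b, Mrpl51 and Tomm22, chosen after the values were seen because the results below turn on these members. Each line gives the 150 bases before the start of the gene, 5′ to 3′ (RefSeq, GRCm38.p6, plus strand), with matches to the searched motifs in capitals.
Timm10b, chr7:105640295-105640444: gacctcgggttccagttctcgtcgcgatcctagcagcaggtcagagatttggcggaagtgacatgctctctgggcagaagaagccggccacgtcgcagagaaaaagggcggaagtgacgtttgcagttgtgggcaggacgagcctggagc
Mrpl51, chr6:125192050-125192199: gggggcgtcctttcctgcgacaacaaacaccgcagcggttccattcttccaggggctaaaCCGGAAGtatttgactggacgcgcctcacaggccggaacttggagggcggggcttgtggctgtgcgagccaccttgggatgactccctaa
Tomm22, chr15:79670718-79670867: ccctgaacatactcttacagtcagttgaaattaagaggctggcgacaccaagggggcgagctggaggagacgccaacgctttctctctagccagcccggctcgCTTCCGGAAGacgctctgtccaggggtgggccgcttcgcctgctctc

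The motifs were CCGGAAG, bound by ETS factors such as GABP, and AANATGGCG, bound by YY1. Both kinds of factor are known to act on nuclear genes for mitochondrial proteins. Both strands were searched, from 250 bases before to 50 bases after the start. In Mrpl51 the ETS letters begin 90 bases before the start. In Tomm22 the capitals are a pair of overlapping ETS matches, on opposite strands, and a further match lies at position 6 after the start. The ETS match of Timm10b lies at position 37, outside the stretch shown. A promoter was in the table for 39 of the 43 tested genes (40 promoters). The ETS letters were in 18 of the 40 (45%), against 11.6% of 21263 promoters of protein-coding genes, and the YY1 letters in 5 (12.5%) against 3.12%. The members' promoters also held more CpG (median 22 against 13). Among the 6651 promoters with at least 22 CpG, a background chosen after the values were seen, 20.0% held the ETS letters and 5.40% the YY1 letters. A match describes letters and is not a binding site. In the value-table comparison of IS + DIDS with IS, the 19 probes of genes with the ETS letters had a median log2 difference of 0.17 and the 22 without had 0.24. The order was turned in the scanner fit, with 0.27 and 0.25.

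Median levels of the members lay close together in Control ACSF, IS and ACSF + DIDS and were higher in IS + DIDS. For each probe the value-table log2 level was expressed relative to its mean over the 12 samples, and the median over the 47 probes was taken per sample. It was 0.22, 0.078 and 0.14 in IS + DIDS 1, 2 and 3. In the other 9 samples it lay between -0.070 and -0.0017, so the IS + DIDS samples did not overlap the rest. Of the 47 probes, 39, 31 and 43 were above their own mean in the 3 IS + DIDS samples, and 12 to 23 in each of the others. On the scanner arrays the same median was 0.058 and 0.16 on IS + DIDS 2 and 3, against -0.055 to 0.018 on the other 7. This level is a description of the members together and carries no test.

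**Figure D1:**
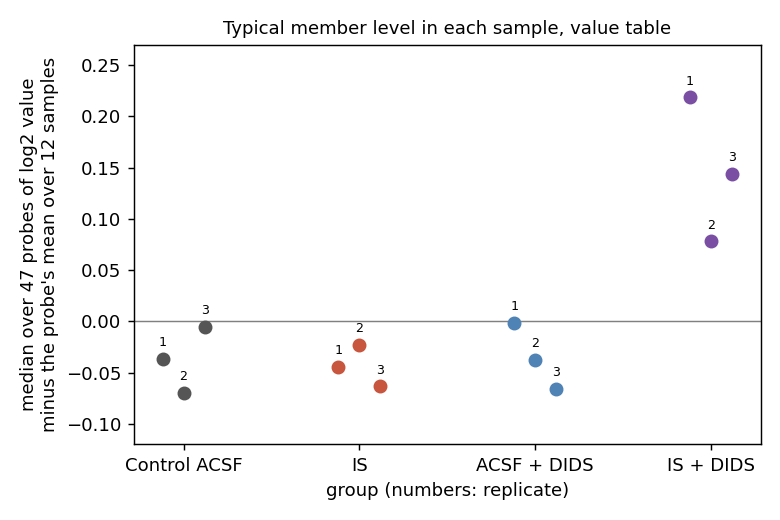
Median over the 47 tested probes of the log2 value-table level minus each probe's mean over the 12 samples (y axis), for the 3 samples of each group (x axis, points labelled with the replicate number). The IS + DIDS samples sit at 0.078 to 0.22 and the other 9 at -0.070 to -0.0017.

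**Figure D2:**
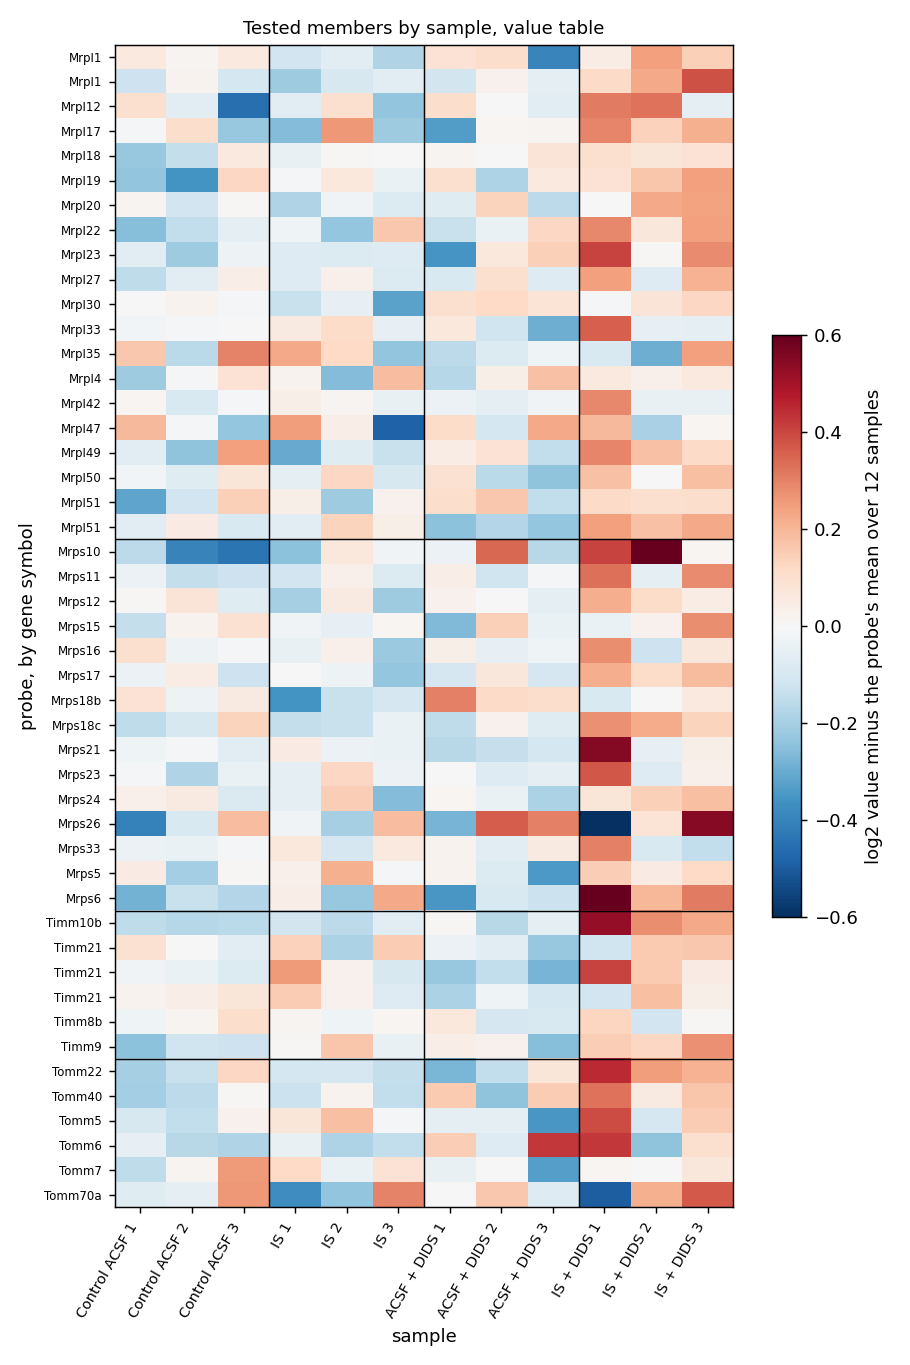
Value-table log2 level of each of the 47 tested probes (rows, by role: large subunit, small subunit, Timm, Tomm) in the 12 samples (columns) minus the probe's mean. Red is higher and blue lower, and values beyond the ends of the scale take the end colours. The IS + DIDS columns are mostly red, with exceptions such as Mrps26 and Tomm70a in IS + DIDS 1.

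What the ischemic solution alone did to these transcripts is read from IS against Control ACSF. None of the 47 members passed the test. In the scanner fit the median log2 difference was 0.012, with 26 of 47 probes higher in IS (against 48.3% of all probes), and limma called 0 members at an adjusted p of 0.05, against 0.0179% of all 16723 probes. In the value-table fit the median was 0.024, with 27 of 47 higher (against 49.2%) and 0 called, against 0.891% of 16717. Unadjusted p-values under 0.05 were found for 4 members in the scanner fit (8.51%, against 10.9% of all probes) and for 1 in the value-table fit (2.13%, against 8.92%). Under median in place of quantile scaling the scanner median was 0.15, and that of all probes was 0.083. The difference of IS from controls thus depends on the scaling, for all probes as well as for the members.

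The members with the smallest p in the scanner fit lay in both directions. Mrpl1 (-0.23, SE 0.05, limma adjusted p = 0.311), Mrps12, the counterpart of the bacterial decoding protein S12 (-0.23, adjusted p = 0.347), and Mrpl30 (-0.26, adjusted p = 0.381) were lower in IS. Mrps6 (0.33, SE 0.09, adjusted p = 0.349), Mrpl22 (0.25, adjusted p = 0.506) and Timm9, a small chaperone of the intermembrane space (0.15, adjusted p = 0.498), were higher. In the value-table fit those differences were -0.17, -0.12, -0.18, 0.21, 0.12 and 0.20, with the same signs. Among value-table levels, 1 member had all IS samples above all controls (7.35% of all probes did) and 3 had them below (8.58%). For Timm9 the value-table levels were 11.73, 11.86 and 11.86 in Control ACSF and 11.99, 12.14 and 11.93 in IS. The Timm9 groups did not overlap, but its adjusted p there was 0.652. Mrps18b, a small subunit protein with a close relative in Mrps18c, was at 9.10 to 9.22 in Control ACSF and 8.77 to 9.03 in IS. All its IS values were lower, with an adjusted p of 0.551 in limma's value-table fit. In the value table the members' median difference was 0.052 within chip 1 (IS 1 against Control ACSF 1 and 2). Within chip 2 (IS 3 against Control ACSF 3) it was -0.053, of opposite sign.

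Adding DIDS to ACSF, the control for the drug alone, was also followed by no called change. The scanner fit gave a median difference of 0.018, with 26 of 47 higher (against 50.4% of all probes) and 0 called by limma (0% of all probes called, 2 members and 3.92% of all probes with an unadjusted p under 0.05). Under median scaling that scanner median was 0.124 (0.049 over all probes). With the shared arrays counted as IS and ACSF + DIDS it was 0.0754 (0.0066 over all probes). The level of the members with the drug alone thus also depends on the processing. The value-table fit gave -0.0027, with 23 of 47 higher (against 50.6%) and 0 members called (0.592% of all probes called, 1 member and 8.79% of all probes with an unadjusted p under 0.05). Mrps10, a small subunit protein, differed most. Its value-table levels were 9.11, 8.87 and 8.83 in Control ACSF, 9.02, 9.33 and 9.25 in IS, 9.23, 9.61 and 9.10 in ACSF + DIDS and 9.67, 9.91 and 9.28 in IS + DIDS. All IS + DIDS values were above all controls, while ACSF + DIDS overlapped the controls. The difference was 0.69 (SE 0.15, limma adjusted p of 1) in the scanner fit and 0.38 (SE 0.17, adjusted p = 0.567) in the value-table fit. Timm9 and Mrps26 were higher by 0.21 and 0.25 in the scanner fit, and 0.097 and 0.23 in the value-table fit. Mrpl50, Timm8b and Mrpl51 were lower (-0.16, -0.13 and -0.15 in the scanner fit, -0.10, -0.075 and -0.18 in the value-table fit), with adjusted p-values of at least 0.619. Among value-table levels, 2 members had all ACSF + DIDS samples above all controls (7% of all probes did) and 4 had them below (8.64%).

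IS + DIDS against IS, the effect of the drug under ischemia, was where the members shifted together. In the value-table fit 44 of 47 probes were higher in IS + DIDS (93.6%, against 52.5% of all probes), with a median log2 difference of 0.17 against 0.013 over all probes. Limma called 1 member, Timm10b, against 3.07% of all probes (2.13% of members). In the scanner fit 39 of 47 were higher (83%, against 54.6%), with a median of 0.25, and 0 members were called, as were 0% of all probes. That scanner median was 0.108 when ACSF + DIDS 2 was counted by its description. It was 0.152 with the shared arrays counted as ACSF + DIDS and IS + DIDS (1 of 47 members and 205 of 16723 probes called). With all 9 arrays as matched and the chip as a block it was 0.150 (4 of 47 members and 421 of 16723 probes called). Unadjusted p-values under 0.05 were found for 12 members in the value-table fit, all of them higher (25.5%, against 8.33% of all probes in that direction), and for 14 in the scanner fit, of which 13 were higher (27.7% against 6.75%). On the value table, 16 members had all 3 IS + DIDS samples above all 3 IS samples (34%, against 11.7% of all probes) and 0 had them below (against 11.3%). They were 10 Mrpl probes, Mrps17, Mrps18b, Mrps18c, Timm10b, Tomm22 and Tomm40. Among 5459 probes of like brightness the median difference was 0.021, and 53.4% were higher.

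**Figure D3:**
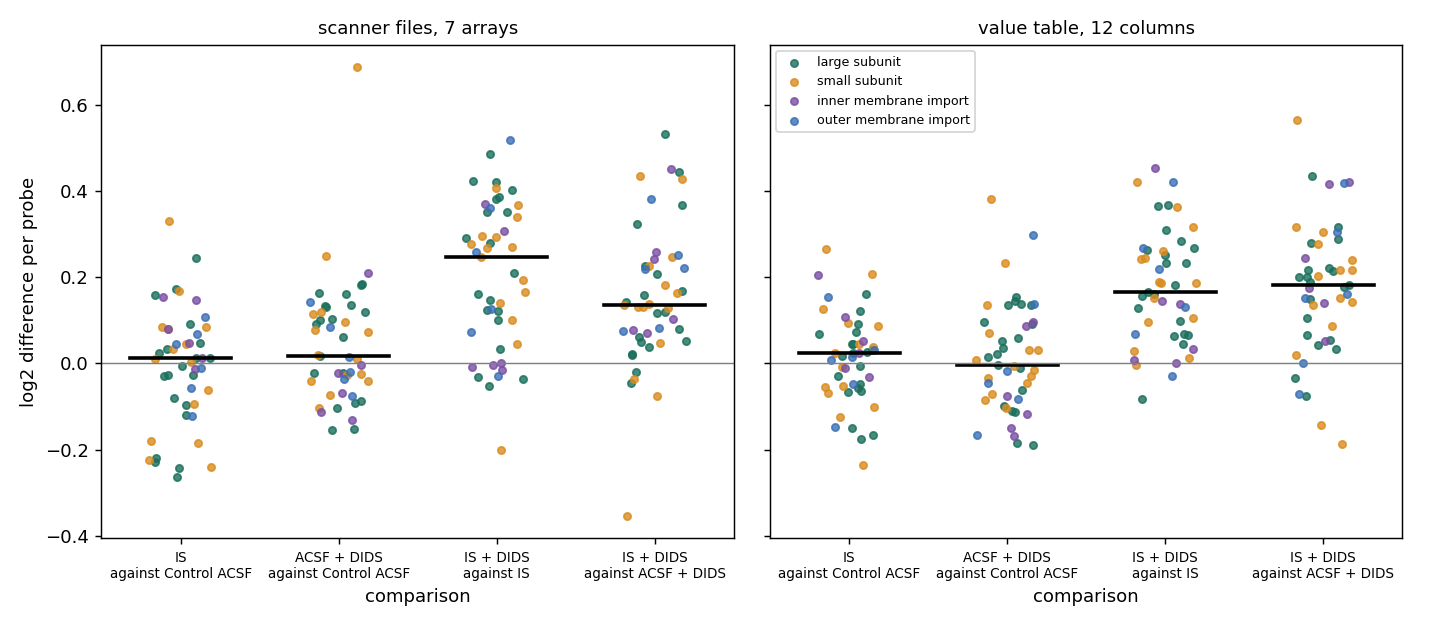
Log2 difference of each tested member probe (points, coloured by role) in 4 comparisons, from the scanner fit of 7 arrays (left) and the value-table fit of 12 columns (right), with the median as a black bar. The medians are near 0 without IS + DIDS and above 0 in both comparisons that contain it.

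Timm10b, a small intermembrane space chaperone of the carrier import route, rose with DIDS in IS in the value-table fit and was not called in the scanner fit. Its value-table levels were 9.23, 9.21 and 9.22 in Control ACSF, 9.27, 9.22 and 9.32 in IS, 9.39, 9.22 and 9.32 in ACSF + DIDS, and 9.91, 9.66 and 9.61 in IS + DIDS. The IS + DIDS samples were above all 9 others. The difference from IS was 0.45 (SE 0.10, a 1.37-fold change, 95% interval 0.23 to 0.68, limma adjusted p = 0.0357). In the scanner fit it was 0.37 (SE 0.07, adjusted p = 0.209). With each value-table sample left out in turn the difference stayed between 0.36 and 0.51. Of the 12 fits, 3 kept a limma adjusted p under 0.05 (0.0440 to 0.138 over the 12). Each of the 3 left out a Control ACSF or ACSF + DIDS sample, which this difference does not compare. Leaving out any IS or IS + DIDS sample lost the call. Over all 39 settings tried, 8 called it, with adjusted p from 0.0317 to 0.723, and counting ACSF + DIDS 2 by its description gave the highest, with a difference of 0.14.

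Tomm22, the central receptor of the outer membrane translocase, showed a like shift without passing. Its values were 9.04, 9.10 and 9.36 in Control ACSF, 9.13, 9.13 and 9.09 in IS, 8.96, 9.09 and 9.31 in ACSF + DIDS and 9.68, 9.49 and 9.45 in IS + DIDS, again above all others. The difference from IS was 0.42 (SE 0.12, adjusted p = 0.0895) in the value-table fit and 0.36 (adjusted p = 0.417) in the scanner fit. Tomm40 was 0.27 higher in the value table but 0.074 in the scanner fit. This dim probe was detected on 6 of 9 arrays. Its levels spanned 7.72 to 7.81 on the scanner arrays and 6.98 to 7.55 in the value table. Why the sources differ was not tested. Tomm7 differed by -0.030 and Tomm70a by 0.13 (SE 0.22) in the value-table fit. Over the 6 Tomm probes the median was 0.18, with 5 higher.

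The large and small ribosomal subunits were alike, with medians of 0.17 (19 of 20 probes higher) and 0.19 (14 of 15 higher) in the value-table fit, against 0.086 for Timm (6 of 6 higher). In the scanner fit the medians were 0.25 and 0.27, and the Timm probes were divided (3 of 6 higher, median -0.00098). Mrpl1 was measured by 2 probes. The dimmer one stood at 6.92, 7.04 and 7.07 in IS and 7.25, 7.37 and 7.52 in IS + DIDS, and the brighter one at 9.72, 9.77 and 9.66 in IS and 9.89, 10.09 and 9.98 in IS + DIDS. With both probes the IS + DIDS samples lay above all IS samples. Their differences were 0.37 (limma adjusted p = 0.0792) and 0.27 (adjusted p = 0.309), and 0.12 and 0.38 in the scanner fit. Mrps18c was at 11.29, 11.30 and 11.39 in IS and 11.71, 11.65 and 11.56 in IS + DIDS, without overlap (0.32, adjusted p = 0.132). Mrpl12, reported to bind the mitochondrial RNA polymerase, was at 11.26, 11.42 and 11.09 in IS and 11.64, 11.65 and 11.27 in IS + DIDS, and the groups overlapped (0.26, adjusted p = 0.403). Mrps12 was higher by 0.24 (adjusted p = 0.246) and Mrps11 by 0.24 (adjusted p = 0.297), the latter by 0.41 in the scanner fit. Mrps33, Mrpl33 and Mrpl42, the lowest in the scanner fit (-0.20, -0.053 and -0.036), were at 0.013, 0.045 and 0.065 in the value-table fit, so that their direction depends on the source.

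IS + DIDS against ACSF + DIDS, the effect of the ischemic solution in the presence of the drug, shares the IS + DIDS samples with the comparison above, so the values are given side by side and not as a second line of evidence. In the value-table fit 42 of 47 members were higher in IS + DIDS (89.4%, against 51% of all probes), with a median of 0.18, and 1 was called (2.13% of members, against 2.47% of all probes). In the scanner fit, of 1 array against 1, 42 of 47 were higher (against 53% of all probes) with a median of 0.14, and 0 were called (0% of all probes). That scanner median was 0.0753 with the replicate block and 0.0904 with the shared arrays counted as IS and IS + DIDS. Unadjusted p-values under 0.05 were found for 10 members in the value-table fit (21.3%, against 20.9%) and for 5 in the scanner fit (10.6%, against 5.99%). The count of 10 was near the background. All 10 were higher, against 10.1% of all probes, as were the 5 (against 3.08%).

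The called member was Mrpl51, a large subunit protein. Its brighter probe stood at 11.67, 11.78 and 11.65 in Control ACSF, 11.67, 11.87 and 11.77 in IS, 11.49, 11.56 and 11.50 in ACSF + DIDS and 11.98, 11.91 and 11.96 in IS + DIDS. The ACSF + DIDS samples were the lowest and the IS + DIDS samples the highest of the 12. The difference was 0.44 (SE 0.09, a 1.35-fold change, 95% interval 0.23 to 0.64, limma adjusted p = 0.0329), and 0.44 with an adjusted p of 0.732 in the scanner fit. The second Mrpl51 probe was at 8.09, 8.14 and 7.84 in ACSF + DIDS and 8.10, 8.08 and 8.09 in IS + DIDS. It gave 0.065 (adjusted p = 0.801), so the probes of this gene disagree. With each value-table sample left out, 5 of 12 fits called the brighter probe (adjusted p 0.0380 to 0.105), and over all 36 settings 7 did (0.0329 to 1). Each of the 5 left out a Control ACSF or IS sample, which this difference does not compare. Leaving out any ACSF + DIDS or IS + DIDS sample lost the call.

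Mrps6 had the largest difference, 0.56 (SE 0.14, adjusted p = 0.0582). Its levels were 12.32, 12.48 and 12.43 in Control ACSF, 12.65, 12.38 and 12.83 in IS, 12.26, 12.51 and 12.48 in ACSF + DIDS and 13.22, 12.81 and 12.92 in IS + DIDS. The lowest IS + DIDS value lay just under the highest IS value. Timm10b followed with 0.42 (adjusted p = 0.0562) and Tomm22 with 0.42 (adjusted p = 0.0922). Timm21, which links the inner membrane translocase to the outer one, was measured by 3 probes, with differences of 0.42 (adjusted p = 0.0857), 0.18 and 0.14. Its differences from IS were 0.14, 0.034 and 0.00088. Mrps18b was the member with all IS + DIDS samples lower (-0.19, adjusted p = 0.329), which 12.5% of all probes did, and 15 members had them all higher (31.9%, against 13.6%). Mrps10 was 0.31 higher in the value-table fit and -0.35 in the scanner fit, where 1 array stands on each side. Mrps11 was higher by 0.44 in the scanner fit (adjusted p = 0.732) and by 0.22 in the value-table fit.

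**Figure D4:**
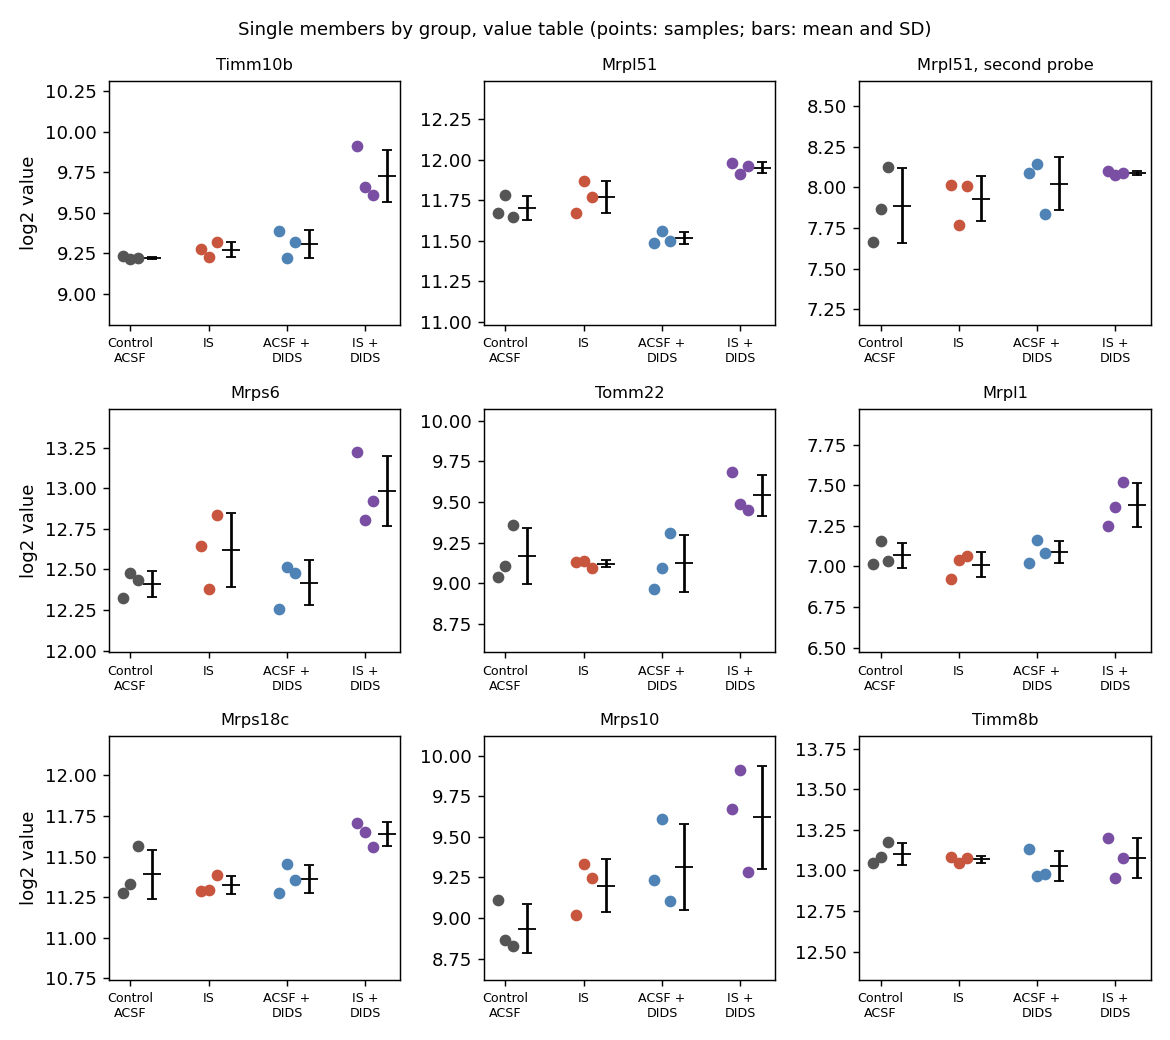
Value-table log2 level (y axis, all panels spanning the same range) of 9 member probes by group (x axis). Points are the 3 samples of a group, and bars give mean and SD. The IS + DIDS points of Timm10b, Mrpl51, Tomm22 and the dimmer Mrpl1 probe lie above all others. Those of Mrps6 and Mrps18c nearly do, and those of Timm8b and the second Mrpl51 probe do not. The brighter Mrpl1 probe is not shown. Its level in IS + DIDS 1 (9.89) was below that in ACSF + DIDS 2 (9.94).

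The interaction asks whether IS acted differently with and without DIDS. It was above 0 for 41 of 47 members in the scanner fit (against 53.8% of all probes) and for 42 in the value-table fit (against 50.5%). The medians were 0.17 and 0.15. In the scanner fit the median was 0.043 under median scaling, where that of all probes was -0.058, and 0.092 with the replicate block. No member passed in either fit (0% and 0.532% of all probes called), and 5 members had an unadjusted p under 0.05 in each (10.6%, against 5.65% and 10.8%). Tomm22 gave 0.47 (SE 0.17, limma adjusted p = 0.351), Mrpl51 0.37 (adjusted p = 0.336) and Timm10b 0.37 (adjusted p = 0.392) in the value-table fit. Timm10b, Mrps11 and Mrpl50 had the smallest p in the scanner fit (0.37, 0.43 and 0.45, adjusted p = 0.792, 0.792 and 0.798), where Mrps10 was lowest (-0.52). The difference between the DIDS effects in IS and in ACSF was therefore not shown for any member. All samples with DIDS against all without gave medians of 0.14 (39 of 47 higher, against 54% of all probes, 8 arrays) and 0.11 (37 of 47 higher, against 52.7%, 12 columns), with 0 members called in either fit (0% and 0.455% of all probes called). Without IS + DIDS 3 these medians were 0.078 and 0.074, and with the matched arrays or columns and the chip as a block 0.0465 and 0.0488. Unadjusted p-values under 0.05 were found for 13 members in the first (27.7%, against 15% of all probes) and 6 in the second (12.8%, against 13.2%). Mrpl20 (0.29, adjusted p = 0.140), Mrps10 (0.62, adjusted p = 0.160) and Timm9 (0.27, adjusted p = 0.172) had the smallest p in the first, and their differences were 0.12, 0.40 and 0.12 in the second. Mrps33 and Timm8b were lower in the first (-0.11 and -0.092), but Mrps33 was at 0.022 in the second.

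Within chip 2 the members' median difference of IS + DIDS 2 and 3 from IS 3 was 0.19 in the value table (0.17 over all 12 columns). There 39 of 47 were higher, against 53.7% of all probes. On the scanner arrays the difference of IS + DIDS 3 from IS 3 was 0.21 (0.25 over the 7 arrays), with 41 of 47 higher, against 54.2%. From ACSF + DIDS 2 and 3 the value-table difference of IS + DIDS 2 and 3 was 0.16 within chip 2 (0.18 over all 12 columns). There 40 of 47 were higher, against 51% of all probes. The chip of the 3 value-table columns with no scanner array is unknown. Among them IS + DIDS 1 differed by 0.21 from IS 2 and by 0.23 from ACSF + DIDS 1, single columns on each side. In each, 40 of 47 were higher, against 51.5% and 51.2% of all probes. Leaving out each value-table sample in turn gave medians of 0.16 to 0.20 from IS and 0.14 to 0.20 from ACSF + DIDS. The sums of marker signals moved in some cell types. The 4 astrocyte probes summed to 25113 to 31285 in IS + DIDS and 31295 to 36033 in IS, without overlap, and to 26626 to 37654 in ACSF + DIDS. Those of the 7 neuronal probes were 23776 to 24994 in IS + DIDS, within the range of IS (21712 to 29366). The 3 microglial probes ran from 5272 to 9178 in IS + DIDS against 5180 to 6117 in IS, and the 4 oligodendrocyte probes from 11812 to 16908 against 13343 to 15648. Dcn, by 2 probes, ran from 2860 to 6102 in IS + DIDS, 4041 to 6384 in ACSF + DIDS and 2524 to 3220 in IS, while the meningeal markers Col1a1 and Col1a2 were not detected. The part of these cell types in the result was not tested.

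Related lists of genes had medians on the same side. In IS + DIDS against IS in the value-table fit, where 52.5% of all probes were higher and 3.07% were called, 16 of 22 probes for mitochondrial gene expression factors were higher (median 0.18, 0 called), as were 10 of 13 for import partners (0.13, 0 called), 48 of 49 for oxidative phosphorylation subunits (0.13, 1 called) and 54 of 74 for cytosolic ribosomal proteins (0.066, 2 called). Those medians were lower in the scanner fit, at 0.064, 0.047, 0.069 and 0.021, against 0.25 for the members, and 0 of these probes were called. In IS + DIDS against ACSF + DIDS the value-table medians were 0.14, 0.12, 0.10 and 0.15, with 17, 8, 41 and 68 higher (51% of all probes were higher and 2.47% called), and the scanner medians were 0.053, 0.070, 0.067 and 0.073. Mterf4, a factor in mitochondrial ribosome assembly, was higher there by 0.54 in the value-table fit (SE 0.10, limma adjusted p = 0.0178). In the scanner fit, of 1 array against 1, Mterf4 differed by 0.72 and was not called. No other probe of these 4 lists was called in that comparison. Ssbp1, the mitochondrial single-stranded DNA binding protein, was higher with both its probes (0.40 and 0.27 from IS, adjusted p = 0.0566 and 0.218). Hspa9, the matrix chaperone that pulls precursors in, was lower by the same comparison (-0.20, adjusted p = 0.392). The difference between lists was not tested.

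**Figure D5:**
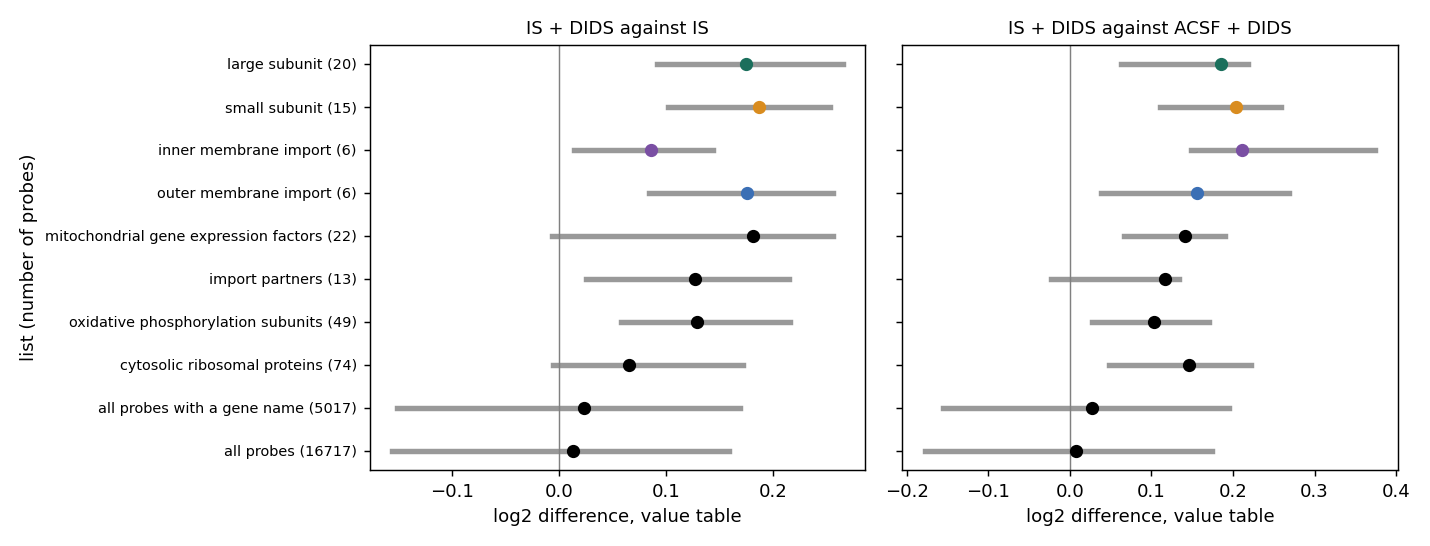
Median (points) and quartiles (grey bars) of the value-table log2 difference for the 4 member classes, 4 related lists, all named probes and all probes (rows, with the number of probes), in the comparisons of IS + DIDS with IS (left) and with ACSF + DIDS (right). The member medians lie at 0.086 to 0.21 and those of all probes near 0.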

How the data were processed

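The series holds 12 total RNA samples on Illumina Mouse-6 v1.1 BeadChips. The deposited scanner signals are mean bead intensities per probe, not normalised between arrays per the file headers, which name BeadStudio 2.3.47 (the submitters' processing notes name version 2.0). The deposited detection score runs from 0 to 1, and the deposited bead counts (median 35 to 36 per probe) limit precision. The authors' value table holds normalised intensity, by a method not given in the sources used here, with column medians of 80.6 to 82.5.

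For the scanner fit, signals were processed with limma 3.58.1's neqc in R 4.3.3 (offset 16, quantile over 9 distinct arrays, log2). For the value-table fit, log2 was taken with no pseudocount, and 16717 of the 16723 tested probes were in the table. Limma fitted 1 coefficient per group (3 and 8 residual degrees of freedom), with Benjamini-Hochberg adjustment over all tested probes and a threshold of 0.05. The scanner fit was the design set for this work and the value table an alternative to it, given beside it because the scanner files repeat arrays. DIDS against no DIDS used 8 scanner arrays, leaving out ACSF + DIDS 3, which is filed in a group with and a group without DIDS. Procedures were tested on simulated data. Replicate numbers come from the sample titles, which do not say what they share. In the value table, deviations of same-numbered samples correlated above 0.1 in all 3 pairs for IS with IS + DIDS (0.129 to 0.198) and for Control ACSF with IS (0.141 to 0.426), but not in all pairs for the other combinations of groups (-0.322 to 0.354).

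Members named were those passing, the 3 of smallest p each way per comparison, genes with several tested probes and a fixed list of import and ribosomal genes. Others, such as Mrps18c, were chosen after their values were seen. The members and lists were chosen with earlier results of these data known. Alternatives were background correction, scaling, filter, blocks, the handling of shared arrays, samples left out and the test. A further 4, on the value table and matched arrays, were added after seeing the data.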

Additional observations from a re-analysis of the deposited data

Results flagged for a closer look

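In the 21 groups of 4 to 10 samples that were examined, 1 held a sample far from the others. Among the 6 value-table samples without DIDS, the log2 level of Timm8b, a small chaperone of the intermembrane space, was 13.17 in Control ACSF 3, against 13.04 to 13.08 in the other 5. The gap was 69.1% of the range. Chance alone gives about 1 such sample in 20 groups if the groups are independent, and these groups share samples.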

How the results depend on the processing

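Values below are log2 differences (medians over the 47 members unless a gene is named), and the cause of each move was not tested. Median scaling gave 0.152 for IS against Control ACSF, 0.191 for IS + DIDS against IS, 0.124 for ACSF + DIDS against Control ACSF, 0.0428 for the interaction, and 0.0045 for Mrpl1 in IS. The medians of all probes under that scaling were, in the same order of comparisons, 0.083, -0.0088, 0.049 and -0.058. The value table called 1 member in each comparison of IS + DIDS, with medians of 0.167 (IS) and 0.182 (ACSF + DIDS). It turned Mrps33 (0.013), Mrpl33 (0.0449) and Mrpl42 (0.0648) against IS, Mrps10 (0.306) and Mrps33 (0.019) against ACSF + DIDS, Mrps10 (0.0405) and Mrpl4 (0.0072) in the interaction and Mrps33 (0.0221) for DIDS. The chip as a block gave 0.210 against IS. Chip 2 alone, with 1 array per group, gave 0.206 against IS, -0.0496 for IS against Control ACSF and 0.207 for the interaction.

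Arrays filed in 2 groups were counted in each. As IS and ACSF + DIDS, they gave 0.0754 for ACSF + DIDS against Control ACSF and turned Mrpl51 in that comparison (0.0403). They also turned Mrpl33 in IS + DIDS against IS (0.0496) and Mrps18b in IS + DIDS against ACSF + DIDS (0.0114). As IS and IS + DIDS, they gave 0.175 against IS, 0.0904 against ACSF + DIDS and 0.127 for the interaction. They gave 2 calls against IS, Timm10b (0.382) and Mrpl20 (0.405), with 143 of 16723 probes called. They turned Mrpl33 against IS (0.0592) and Mrps10 against ACSF + DIDS (0.0012). As ACSF + DIDS both, they gave 0.173 against ACSF + DIDS. As ACSF + DIDS and IS + DIDS, they gave 1 call (205 of 16723 probes called) and 0.152 against IS. They turned Mrps10 against ACSF + DIDS (0.273) and in the interaction (0.104). ACSF + DIDS 2 counted as IS + DIDS gave 0.108 against IS. Of the alternatives chosen after seeing the data, the 9 matched table columns with the chip block gave 0.117 against IS and 0.0488 for DIDS. They turned Mrps10 against ACSF + DIDS (0.238) and in the interaction (0.0394). The 9 matched scanner arrays with that block called 4 members against IS (Mrpl30, Mrps12, Mrps24, Timm10b) and 1 against ACSF + DIDS (Timm10b), gave 0.150 and, for DIDS, 0.0465, and turned Mrps10 (0.273, interaction 0.111).

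The replicate block changed no call of a member in either source. On the scanner arrays the replicate block gave 0.2003 (IS), 0.0526 (ACSF + DIDS against Control ACSF), 0.0753 (IS + DIDS against ACSF + DIDS) and 0.0924 (interaction). In the value table the replicate block kept every difference and both counts of 1, with 620 (IS) and 465 (ACSF + DIDS) of 16717 probes called.

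With each sample left out in turn, over both sources, the medians ran from 0.158 to 0.261 for IS + DIDS against IS (0 to 1 called), 0.136 to 0.199 against ACSF + DIDS (0 to 2 called), -0.0243 to 0.031 for ACSF + DIDS against Control ACSF, 0.105 to 0.194 for the interaction and 0.0744 to 0.183 for DIDS (0 to 1 called). The call for DIDS was Timm10b, without ACSF + DIDS 2 (234 of 16723 probes called). Directions turned among the value-table fits for the members that follow, with ranges over both sources. Against IS they were Mrps33 (-0.201 to 0.0981), Mrpl33 (-0.103 to 0.116) and Mrpl42 (-0.0684 to 0.121). Against ACSF + DIDS it was Mrps33 (-0.123 to 0.104). In the interaction they were Mrps10 (-0.65 to 0.211), Mrps33 (-0.171 to 0.0669) and Mrpl4 (-0.232 to 0.109). For DIDS they were Mrps33 (-0.128 to 0.0542) and Mrpl33 (-0.107 to 0.0228). Mrps10 against ACSF + DIDS was -0.354 in the scanner fits, where it could not move because neither array compared could be left out. In the value table Mrps10 was at 0.162 to 0.476. Its sign differed between the sources and did not turn within the value table. Of all values recomputed, 1579 kept their direction and side of the threshold, or moved by less than the spread between samples. A further 114 turned direction, 77 moved, and 16 passed the threshold where the main fit had not. With 3 residual degrees of freedom in the scanner fit, the number of arrays limits what could be called.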
